A study of Mus musculus with 16 samples.

Results

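The genes described here are 10 neuronal immediate early genes, set by symbol: Fos, Fosb, Junb, Egr1, Egr2, Egr4, Arc, Npas4, Nr4a1 and Ier2. Of these, 9 were matched by Ensembl identifier to a row among the 21804 genes of the deposited table, and Nr4a1 was not analysed here. RNA was sequenced from C57BL/6 mice aged 4 months with 1 copy (ret/wt, animals a to d) or 2 copies (ret/ret, animals e to h) of the Pdgfb retention allele, which lacks the motif that keeps the growth factor PDGF-B near the vessel wall. The control animals carry the allele too, so no group is free of it. One cortex and one thalamus library came from each of the 8 animals, giving 4 groups of 4 libraries, with animals a to d and e to h as replicates 1 to 4 of their genotype. The ret/ret thalamus pieces were calcified foci found by their fluorescence and cut out under the microscope, whereas the ret/wt thalamus pieces came from the matching region and the cortex pieces from a region where calcification does not form. In the thalamus, genotype and presence of a calcified focus in the piece therefore cannot be told apart.

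Immediate early genes are transcribed within minutes of a stimulus, without new protein synthesis, when calcium entry and kinase signalling activate factors such as CREB and SRF that already sit at their promoters. Most encode transcription factors: Fos, Fosb and Junb are subunits of AP-1, the Egr proteins are zinc-finger factors, and Npas4 is a bHLH-PAS factor induced mainly by calcium in neurons. Arc is an effector that acts at the synapse in the removal of AMPA receptors, and Ier2 is a nuclear protein of the same rapid response. In brain tissue their RNA is widely read as a trace of recent neuronal firing, and Fos, Junb, Egr1 and Ier2 are also induced in other cell types.

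The promoter windows of the members were searched for sequence elements through which this response is known to work, and 4 are printed because they hold no annotated exon base. Each window is the 250 bases before the RefSeq start on GRCm38.p6, written along the gene's strand, for Fos at chr12:85473640-85473889 (plus strand), Junb at chr8:84978749-84978998 (minus), Egr2 at chr10:67537619-67537868 (plus) and Egr4 at chr6:85513590-85513839 (minus). Capitals mark TGACG on either strand, which is the core of a CREB site and reads CGTCA when it lies on the other strand, the CArG box bound by SRF, and TATAA on the printed strand.
Fos: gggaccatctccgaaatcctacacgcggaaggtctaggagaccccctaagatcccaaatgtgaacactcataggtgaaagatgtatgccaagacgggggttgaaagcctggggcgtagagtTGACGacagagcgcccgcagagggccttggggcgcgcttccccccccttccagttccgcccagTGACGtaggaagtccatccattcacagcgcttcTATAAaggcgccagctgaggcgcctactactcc
Junb: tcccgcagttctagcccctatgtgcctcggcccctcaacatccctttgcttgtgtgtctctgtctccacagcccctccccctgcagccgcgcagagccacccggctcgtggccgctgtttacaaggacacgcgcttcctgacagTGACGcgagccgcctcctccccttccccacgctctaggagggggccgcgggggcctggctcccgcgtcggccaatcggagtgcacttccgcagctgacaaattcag
Egr2: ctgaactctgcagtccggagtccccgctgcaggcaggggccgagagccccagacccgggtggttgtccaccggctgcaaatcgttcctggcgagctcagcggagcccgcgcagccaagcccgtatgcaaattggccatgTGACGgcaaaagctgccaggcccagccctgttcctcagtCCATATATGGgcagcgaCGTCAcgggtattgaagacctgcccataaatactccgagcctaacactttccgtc
Egr4: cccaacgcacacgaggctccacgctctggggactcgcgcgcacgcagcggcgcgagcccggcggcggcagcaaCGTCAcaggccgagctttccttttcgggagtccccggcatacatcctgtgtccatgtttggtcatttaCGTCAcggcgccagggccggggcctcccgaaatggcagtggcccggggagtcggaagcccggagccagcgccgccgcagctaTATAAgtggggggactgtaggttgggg

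Of the 9 measured members, 6 had a window in the RefSeq promoter table, and TGACG was present in 6 of 6 (Fos, Fosb, Junb, Egr2, Egr4 and Npas4), against 17.8% of all 32851 windows of that length. Fos, Egr2, Egr4 and Npas4 held it more than once, which was so in 3.90% of all windows. Counting back from the start, Fos held it at positions -129 and -66, Fosb at -60 and Junb at -106. The full palindrome TGACGTCA was in 0 of 6 member windows and in 1.55% of all windows. A CArG box was matched in 1 of 6, that of Egr2, ahead of the TGACG nearest to its start, against 1.47% of all windows. TATAA stood in the windows of Fos, Egr4 and Npas4, against 15.9965% of all windows. All 250 bases of the Npas4 window lie in annotated exons, with its start 345 bases from the principal start of the gene, and 6 bases of the Fosb window do. Egr2 had 5 windows, of which 1 was used. These matches describe letters in a window, sites farther upstream were not searched, and binding was not measured.

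All 9 measured genes passed the filter on low counts in every comparison. Levels are given in CPM (counts scaled to a common library total), scaled by trimmed mean of M-values (TMM) over all 16 libraries, and fold changes come from edgeR's quasi-likelihood test on the counts, adjusted by Benjamini-Hochberg over all genes tested, with a call at an adjusted p under 0.05. Library totals ran from 13415391 to 29135064 counts, so that 3 counts, the level not told apart from 0, corresponded to 0.110 to 0.235 CPM. Some cortex pieces held RNA of other brain regions: the summed level of 8 cerebellar markers was 1921 CPM in ret/wt cortex replicate 3 and 4184 CPM in ret/ret cortex replicate 2, and at most 62.3 CPM in the other 6 cortex libraries. Choroid plexus markers summed to 1148 CPM in ret/wt cortex replicate 4. Hippocampal and striatal markers summed to 622 and 417 CPM in ret/ret cortex replicate 1, and to at most 353 and 260 CPM in the other cortex libraries. Animals c and f also differed from the others in the Y-linked gene Ddx3y, at 55.2 to 68.6 CPM in their 4 libraries and at most 0.219 CPM elsewhere. The comparisons are therefore also given for the 6 animals without Y-linked reads, which leaves out both libraries with cerebellar markers. That choice also leaves out the thalamus libraries highest in thalamic neuron markers, at 3224 CPM (animal c) and 3468 CPM (animal f).

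The AP-1 subunits differed in how sharply they separated the regions. Fos (chr12:85473890-85477273, plus strand), the best known AP-1 subunit, stood at 77.2, 126, 79.1 and 23.0 CPM in ret/wt cortex replicates 1 to 4 and at 19.5, 128, 31.8 and 27.7 CPM in ret/ret cortex. In the thalamus Fos stood at 40.5, 44.6, 37.7 and 12.5 CPM in ret/wt and at 18.7, 46.5, 12.6 and 29.7 CPM in ret/ret. The cortex and thalamus values of Fos overlapped in both genotypes. Fosb (chr7:19302696-19310051, minus strand), its close relative, stood at 19.0, 44.6, 36.8 and 24.5 CPM in ret/wt cortex and at 8.35, 11.6, 16.9 and 14.98 CPM in ret/ret cortex. Thalamic Fosb was 5.14, 8.65, 6.88 and 2.07 CPM in ret/wt and 3.37, 3.75, 4.27 and 2.57 CPM in ret/ret. Every cortex library exceeded every thalamus library of its genotype for Fosb, and every ret/wt cortex library exceeded every ret/ret one. Junb (chr8:84974484-84978718, minus strand), which pairs with Fos proteins, was 73.8, 117, 16.1 and 27.3 CPM in ret/wt cortex and 20.8, 55.3, 23.4 and 36.3 CPM in ret/ret cortex. In the thalamus it was 11.2, 10.3, 5.98 and 5.75 CPM in ret/wt and 13.96, 12.2, 5.58 and 6.09 CPM in ret/ret. Junb was thus higher in each cortex library than in any thalamus library of the same genotype, while the genotypes overlapped in both regions. The Junb gene overlaps Prdx2 on the opposite strand, and whether the counting used strand is not given in the sources used here.

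By group mean, Egr2 and Egr4 showed wider regional gaps than the AP-1 subunits in both genotypes. The ratio of cortex to thalamus means for Egr1 in ret/wt, 5.55, was below that of Junb, 7.04. Egr1 stood at 648, 681, 570.6 and 149 CPM in ret/wt cortex and at 114, 329, 479 and 309 CPM in ret/ret cortex. Its thalamic levels were 109.5, 112, 89.3 and 58.1 CPM in ret/wt and 43.0, 113, 45.2 and 36.6 CPM in ret/ret. The lowest cortex library lay above the highest thalamus library in each genotype, narrowly so in ret/ret, where 114 CPM stood against 113 CPM. Egr2 (chr10:67535475-67542188, plus strand) was 20.8, 57.5, 26.2 and 8.80 CPM in ret/wt cortex and 2.25, 10.7, 5.66 and 12.9 CPM in ret/ret cortex. In the thalamus Egr2 was near the floor, with 6, 96, 2 and 2 counts in ret/wt replicates 1 to 4 and 11, 18, 3 and 11 counts in ret/ret. A single library, ret/wt thalamus replicate 2, thus held most of the Egr2 counts of its group. Egr4 (chr6:85511121-85513589, minus strand) measured 21.4, 51.5, 14.8 and 9.01 CPM in ret/wt cortex and 6.03, 12.4, 8.07 and 9.90 CPM in ret/ret cortex. Its thalamic levels were 1.55, 2.38, 1.08 and 1.10 CPM in ret/wt and 0.975, 0.581, 0.388 and 1.06 CPM in ret/ret. Egr4 had no overlap between regions in either genotype, and each ret/ret thalamus library lay below each ret/wt one.

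Arc, Npas4 and Ier2 completed the set. Arc (chr15:74669083-74672570, minus strand) stood at 619.6, 777, 447 and 115 CPM in ret/wt cortex and at 93.7, 286, 305 and 259 CPM in ret/ret cortex. Its thalamic levels were 31.5, 39.8, 24.6 and 18.8 CPM in ret/wt and 28.6, 14.5, 26.8 and 49.8 CPM in ret/ret. Regions did not overlap for Arc, whereas the genotypes overlapped in both regions. Npas4 (chr19:4984355-4990316, minus strand) measured 28.1, 43.3, 16.4 and 15.9 CPM in ret/wt cortex and 10.3, 10.6, 20.7 and 6.84 CPM in ret/ret cortex. In the thalamus it measured 2.03, 3.66, 2.57 and 2.13 CPM in ret/wt and 3.06, 3.04, 2.62 and 1.81 CPM in ret/ret. The thalamic values of Npas4 lay within a narrow band in both genotypes and below all cortex values. Ier2 (chr8:84661331-84662852, minus strand) was 13.4, 13.3, 5.36 and 3.42 CPM in ret/wt cortex and 4.07, 24.5, 5.70 and 5.54 CPM in ret/ret cortex. Ier2 in the thalamus was 3.20, 3.55, 3.71 and 4.65 CPM in ret/wt and 4.43, 7.87, 2.23 and 3.77 CPM in ret/ret, overlapping the cortex in both genotypes. By group mean, ret/wt cortex was highest for every gene but Ier2, whose means (± SD, n = 4) were 9.94 ± 9.71 CPM in ret/ret cortex and 8.88 ± 5.24 CPM in ret/wt cortex, and ret/ret cortex stood above both thalamus groups for all 9. The next mean below ret/ret cortex was that of ret/ret thalamus for Junb, Arc, Npas4 and Ier2 and that of ret/wt thalamus for the other genes. The libraries of ret/ret cortex did not overlap those of this next group for Junb, Egr1, Egr4, Arc and Npas4, and overlapped them for Fos, Fosb, Egr2 and Ier2. For Egr1 the gap was narrow, 113.8 CPM against 112.1 CPM. Between the regions of ret/ret, 9.27% of the 14715 genes tested had no overlap in that direction. For ret/ret cortex against ret/wt thalamus, the share over all genes was not computed.

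**Figure D1:**
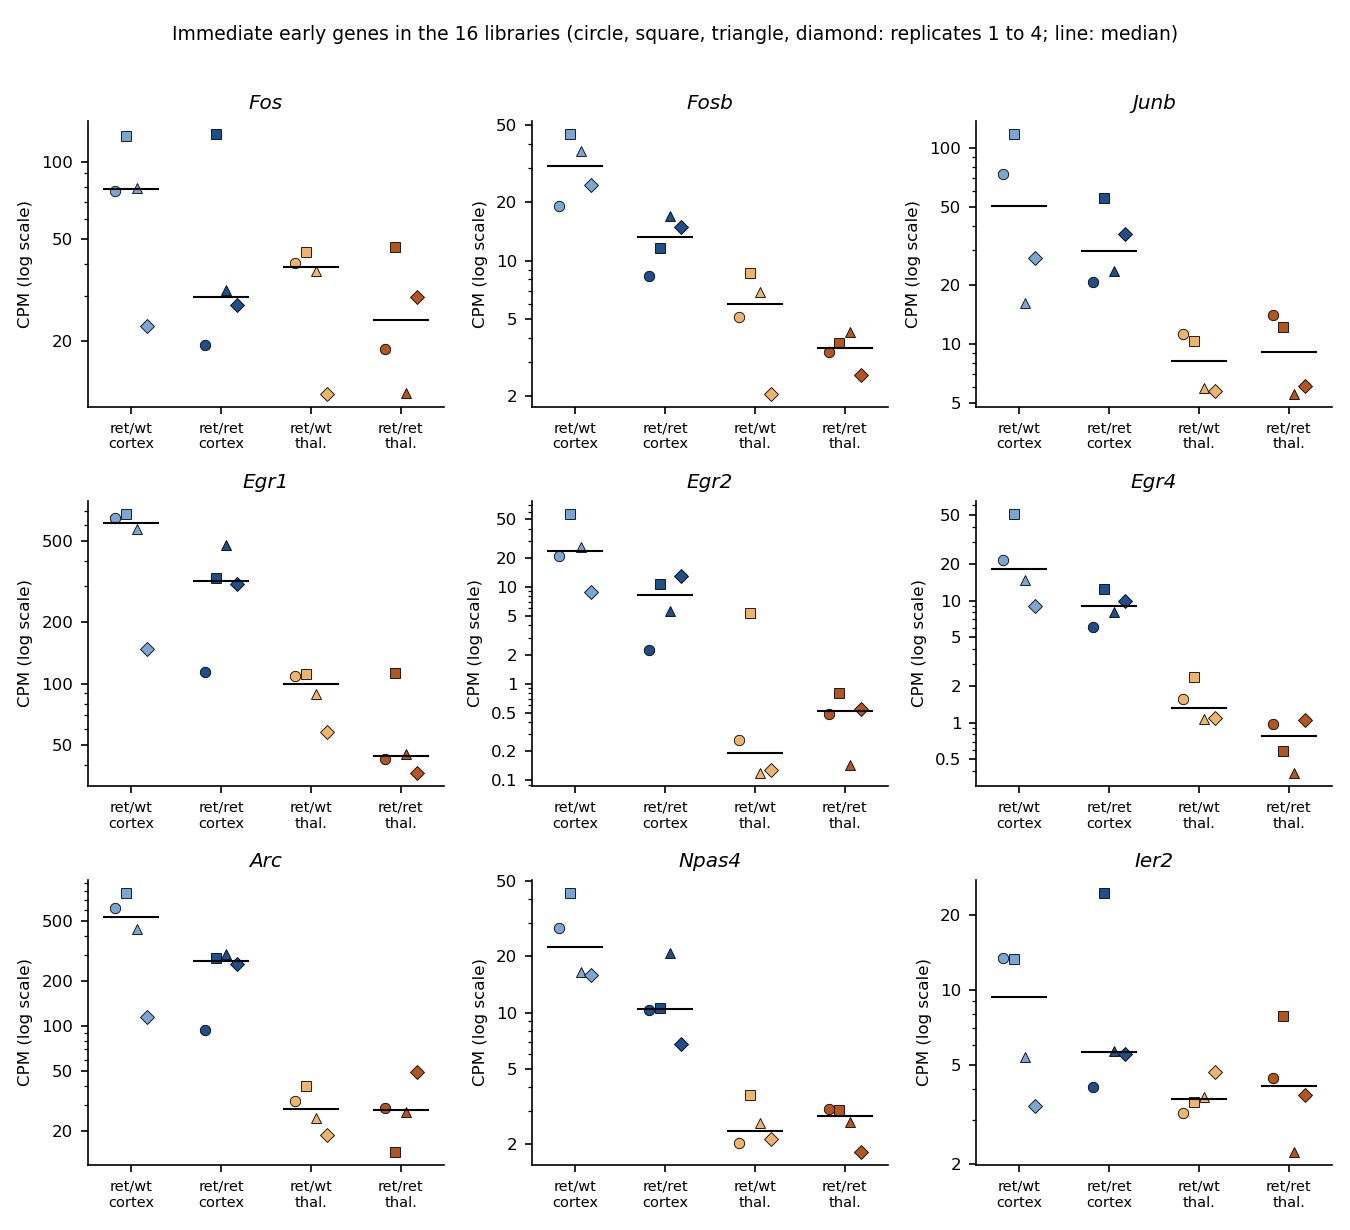
Level of each measured immediate early gene in CPM (vertical axis, log scale) in the 4 groups of 4 libraries, one point per library with its shape giving the replicate and a line at the group median. Fosb, Junb, Egr1, Egr2, Egr4, Arc and Npas4 have no overlap between cortex and thalamus within either genotype, and Fos and Ier2 do.

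Within ret/wt animals, 7 of the 9 genes were lower in the thalamus than in the cortex with an adjusted p under 0.05 (Fosb, Junb, Egr1, Egr2, Egr4, Arc and Npas4), where 7.12% of the 14442 genes tested were called lower. The same 7 genes had no overlap between the regions, against 11% of all genes. The median log2 fold change of the 9 genes, thalamus over cortex, was -2.80, and that of all genes tested was 0.03. Arc fell from 489.6 ± 284 CPM to 28.7 ± 9.07 CPM (SD, n = 4 each), a log2 fold change of -4.09 ± 0.53 (SE, edgeR adjusted p = 0.00101). Npas4 fell from 25.9 ± 12.9 to 2.60 ± 0.746 CPM, or by 3.31 ± 0.39 on the log2 scale (edgeR adjusted p = 0.000581). The drop in Egr4 was from 24.2 ± 18.9 to 1.53 ± 0.612 CPM, a log2 fold change of -3.96 ± 0.56 (edgeR adjusted p = 0.00156). The AP-1 subunits Junb and Fosb had log2 fold changes of -2.80 ± 0.57 and -2.45 ± 0.42, and Egr1 one of -2.47 ± 0.43. Fos had a log2 fold change of -1.17 ± 0.49 (edgeR adjusted p = 0.152) and Ier2 one of -1.21 ± 0.44 (edgeR adjusted p = 0.106).

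Some calls in ret/wt animals rested on the choice of libraries or design. With the animal as a replicate block, Fos was called as well, at a log2 fold change of -1.08 (edgeR adjusted p = 0.0177), for 8 of 9 genes. That fit called 868 of the 14442 genes lower. DESeq2 called Ier2 instead (DESeq2 adjusted p = 0.0449), also for 8 of 9, and it called 1410 of the 14442 genes lower. Without ret/wt cortex replicate 4, the library with choroid plexus markers, all 9 genes were called, Fos with an edgeR adjusted p of 0.0429 and Ier2 with 0.0339. Over all genes, 862 of the 14670 tested without that library were called lower. Egr2, at -4.27 ± 1.09 on the log2 scale (edgeR adjusted p = 0.0284), lost its call when cortex replicate 1 (edgeR adjusted p = 0.0531), cortex replicate 2 (0.0844) or thalamus replicates 1 (0.0672), 3 (0.0536) or 4 (0.0557) were left out. Without thalamus replicate 2, which held 96 of its thalamic counts, Egr2 stood at -7.24 (edgeR adjusted p = 0.00152). In the 6 animals without Y-linked reads, 6 of the 9 were called, and Egr2 was not (edgeR adjusted p = 0.0829). There, 838 of the 14483 genes tested were called lower.

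Within ret/ret animals the same 7 genes were called lower in the thalamus and had no overlap, where 5.4% of the 14715 genes tested were called lower and 9.27% had no overlap in that direction. The median log2 fold change of the 9 genes was -2.20, and that of all genes -0.02. Egr4 fell from 9.10 ± 2.70 to 0.750 ± 0.319 CPM, a log2 fold change of -3.59 ± 0.41 (edgeR adjusted p = 0.00282). Egr2 fell by 3.96 ± 0.66 on the log2 scale (edgeR adjusted p = 0.00786). Arc fell from 236 ± 96.6 to 29.9 ± 14.7 CPM, with a log2 fold change of -2.97 ± 0.45 (edgeR adjusted p = 0.00608). The log2 fold change was -2.20 ± 0.37 for Npas4, -1.89 ± 0.29 for Fosb, -2.37 ± 0.49 for Egr1 and -1.84 ± 0.41 for Junb. Fos and Ier2 gave -0.94 ± 0.62 and -1.12 ± 0.62 (edgeR adjusted p = 0.363 and 0.282). The same 7 genes were called in the fit on the 6 animals, or with the animal as a replicate block. Over all genes, those fits called 1418 of 14737 and 676 of 14715 lower. Junb lost its call without ret/ret cortex replicate 4 (edgeR adjusted p = 0.0599) or thalamus replicate 3 (0.0680) or 4 (0.0697). Egr1 lost it without cortex replicate 3 (edgeR adjusted p = 0.0517) or thalamus replicates 1 (0.0606), 3 (0.0605) or 4 (0.0569).

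Compared inside each animal, cortex exceeded thalamus in 8 of 8 animals for Fosb, Junb, Egr1, Egr2, Egr4, Arc and Npas4. The ratio of cortex to thalamus CPM ran from 6.18 to 21.6 for Egr4 (median 13.8), from 3.27 to 19.7 for Arc (median 14.8) and from 3.37 to 13.8 for Npas4 (median 6.92). Fosb had a median ratio of 4.56, Junb of 4.65 and Egr1 of 5.99. Fos was higher in cortex in 7 of 8 animals and Ier2 in 6 of 8, with medians of 2.002 and 2.01. In animal h, Fos was 0.932 times as high in cortex as in thalamus. No ratio is given for Egr2, since several thalamus libraries held 3 counts or fewer.

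The pieces of the regions differ in their cells, and in bulk tissue fewer cells of a type and less RNA per cell cannot be told apart. Markers of all neurons, a list of 10 genes, summed to 9708 to 11591 CPM in ret/wt cortex and 6244 to 9594 CPM in ret/wt thalamus, and to 7291 to 11889 and 5338 to 8991 CPM in ret/ret. Their median log2 fold change from cortex to thalamus was -0.27 in ret/wt and -0.36 in ret/ret. Cortical excitatory neuron markers summed to 1295 to 2020 CPM in ret/wt cortex, 871 to 2699 CPM in ret/ret cortex and 149 to 479 CPM in the thalamus libraries. Of those 10 genes, 7 were called lower in the thalamus in each genotype, against 7.12% of all genes in ret/wt and 5.4% in ret/ret. Oligodendrocyte markers summed to 1915 to 4772 CPM in cortex and 10006 to 17089 CPM in thalamus. The part of these differences in the levels of the immediate early genes was not tested.

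In the cortex, where no calcification forms, none of the 9 genes was called between genotypes by edgeR, where 0.021% of the 14288 genes tested were called. The log2 fold change of ret/ret over ret/wt was below 0 for 8 of the 9, with a median of -1.04, and 48.1% of all genes were below 0, with a median of 0.01. At an unadjusted p under 0.05, edgeR had 4 of 9 lower in ret/ret (Fosb, Egr2, Egr4 and Npas4), against 1.14% of all genes. That count was 1 of 9, with a median of -0.72, without ret/wt cortex replicate 2, the library highest in most of these genes, and 2 of 9, with a median of -0.77, without ret/ret cortex replicate 1, the lowest in 6 of them. It was 6 of 9, with a median of -1.25, without ret/wt cortex replicate 4. Over all genes tested in these fits, in the same order, 170 of 14601, 233 of 14571 and 167 of 14385 were lower at that level. limma-voom called 0 of 9, with 3 lower at an unadjusted p under 0.05, as were 174 of the 14288 genes. DESeq2 called 1 of 9, Fosb, and called 39 of the 14288 genes. Fosb was the one gene with no overlap, all 4 ret/ret libraries lying below all 4 ret/wt libraries, against 0.735% of all genes.

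Fosb averaged 31.2 ± 11.6 CPM in ret/wt cortex and 12.97 ± 3.79 CPM in ret/ret cortex (SD, n = 4 each), with a log2 fold change of -1.25 ± 0.31 (SE, edgeR unadjusted p = 0.00247, adjusted p = 0.728). The DESeq2 adjusted p for Fosb was 0.0494, and over all alternatives the adjusted p ran from 0.0494 to 0.9999. Egr2 averaged 28.3 ± 20.8 and 7.88 ± 4.83 CPM, at -1.82 ± 0.62 (edgeR unadjusted p = 0.0148, adjusted p = 0.999). Egr4 averaged 24.2 ± 18.9 and 9.10 ± 2.70 CPM, at -1.39 ± 0.49 (edgeR unadjusted p = 0.0183), and Npas4 25.9 ± 12.9 and 12.1 ± 5.99 CPM, at -1.07 ± 0.41 (edgeR unadjusted p = 0.0263). Those 3 genes had overlapping groups. Arc had a log2 fold change of -1.04 ± 0.53, Junb of -0.77 ± 0.57, Egr1 of -0.72 ± 0.50 and Fos of -0.54 ± 0.64. Ier2 stood at 0.20 ± 0.64, with the group mean of ret/ret raised by the 24.5 CPM of replicate 2. In the 6 animals without Y-linked reads, 9 of 9 genes were below 0 with a median of -1.19, 6 had an unadjusted p under 0.05, and edgeR called 0. At that unadjusted p, 249 of the 14123 genes tested in that fit were lower. These cortex libraries also enter the comparisons of regions, so the values of the comparisons are not independent.

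In the thalamus, where the ret/ret pieces were calcified foci, edgeR called 0 of the 9 genes between genotypes, as it called 0% of the 14767 genes tested. At an unadjusted p under 0.05, 0 of 9 were lower in ret/ret, against 0.88% of all genes, and DESeq2 and limma-voom called 0 of 9 as well. The fold change was below 0 for 5 of the 9, with a median log2 fold change of -0.29 for the 9 and -0.02 for all genes, of which 52.9% were below 0. With single libraries left out, the median of the 9 ran from -0.69 without ret/ret thalamus replicate 2 to 0.26 without ret/wt thalamus replicate 2. Egr4 was the one gene without overlap, as were 1.03% of all genes in that direction. It averaged 1.53 ± 0.612 CPM in ret/wt and 0.750 ± 0.319 CPM in ret/ret (SD, n = 4 each), at a log2 fold change of -0.98 ± 0.48 (SE, edgeR unadjusted p = 0.0700, adjusted p = 0.9998). Its ret/ret thalamus libraries held at least 8 counts each.

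The other 8 genes overlapped between genotypes in the thalamus. Arc averaged 28.7 ± 9.07 CPM in ret/wt and 29.9 ± 14.7 CPM in ret/ret, at 0.10 ± 0.36 on the log2 scale, and Npas4 averaged 2.60 ± 0.746 and 2.63 ± 0.584 CPM, at 0.05 ± 0.35. Junb and Ier2 stood at 0.23 ± 0.37 and 0.31 ± 0.40. Fos stood at -0.29 ± 0.45, Fosb at -0.66 ± 0.41, Egr1 at -0.60 ± 0.36 and Egr2 at -1.49 ± 1.15. Egr2 had most of its ret/wt counts in 1 library, and without ret/wt thalamus replicate 2 its fold change turned to 1.52. In the 6 animals without Y-linked reads, 8 of 9 genes were below 0 with a median of -0.59, 1 had an unadjusted p under 0.05, and edgeR called 0. At that unadjusted p, 183 of the 14872 genes tested in that fit were lower. Mitochondrial genes took 5.87% to 12.1% of the counts in ret/ret thalamus and 4.24% to 8.80% in ret/wt thalamus. Microglial markers summed to 410 to 575.96 CPM in ret/ret and 271 to 334 CPM in ret/wt. Thalamic neuron markers summed to 3224 CPM in ret/wt replicate 3 (animal c) and 3468 CPM in ret/ret replicate 2 (animal f). They summed to 624 to 1290 CPM in the other thalamus libraries. The part of these differences between pieces in the genotype values was not tested.

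**Figure D2:**
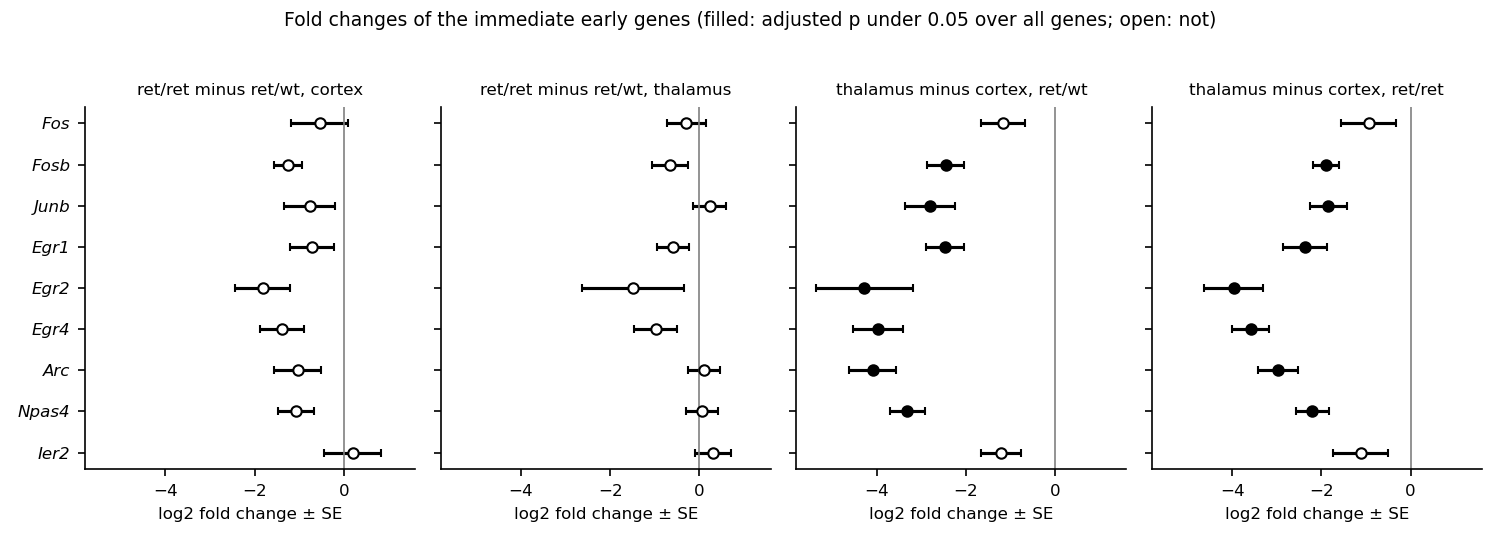
Log2 fold change with its standard error from edgeR for each gene in the comparisons of genotype (ret/ret over ret/wt) and region (thalamus over cortex), filled where the adjusted p was under 0.05. The region values lie below 0 for all 9 genes in both genotypes, from -0.94 for Fos in ret/ret to -4.27 for Egr2 in ret/wt. Gene by gene, the genotype values lie nearer to 0 than the region values of the same gene.

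Whether the genotype difference itself differed between the regions was tested with an interaction term over all 16 libraries. edgeR called 0 of the 9 genes, as it called 0% of the 15286 genes tested, and 0 of 9 had an unadjusted p under 0.05. DESeq2 called 0 with 1 at an unadjusted p under 0.05, and limma-voom called 0. The interaction, thalamus minus cortex, was above 0 for 9 of 9 genes, with a median of 0.38, and the median of all genes was -0.04. Without ret/wt cortex replicate 2 it was below 0 for 5 of the 9, with a median of -0.05, and without ret/ret cortex replicate 2 the median was 1.07. Npas4 was at 1.11 ± 0.53 (SE, edgeR unadjusted p = 0.0517), Arc at 1.11 ± 0.69 and Junb at 0.97 ± 0.73. Fosb, for which the cortex groups did not overlap, was at 0.56 ± 0.52, and Egr1, at 0.10 ± 0.67, was the smallest. These fits did not pair the libraries of an animal. With the animal as a replicate block, 1 of 9 genes was below 0 and the median was 0.63. In that paired fit edgeR called 0, and 1 of 9 had an unadjusted p under 0.05, as had 243 of the 15286 genes tested.

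Animals of 1 group differed in these genes more than they did in most genes. The median within-group standard deviation of log2 CPM was 1.03 for the 9 genes in cortex and 0.387 for all genes, and in thalamus 0.604 and 0.416. Fos in cortex had a standard deviation of 1.12, above that of 92.1% of genes, whereas Fosb in cortex, at 0.506, exceeded 64.6%. In the thalamus, Npas4 varied by 0.363, above 40.7% of genes, and Egr2 by 1.79, above 97.8%, with its low counts.

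The levels of the genes were correlated from library to library inside the groups. After each group's mean was removed, 35 of the 36 pairs of genes had a correlation above 0 over the 16 libraries, with a median of 0.515 and a range from -0.069 to 0.781. These points share 8 animals, and no test was made. Egr4 followed the mean of the other genes most closely (r = 0.81), then Fos (0.79), Egr1 (0.75) and Egr2 (0.71), and Fosb least (0.43).

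In the cortex, animal b (ret/wt replicate 2) had the highest level of the 8 animals in 7 of 9 genes, and animal f (ret/ret replicate 2) in the other two, Fos and Ier2. Animal e (ret/ret replicate 1) was among the lowest pair in 9 of 9 genes and the lowest in 6. Measured from the group mean, animal b lay higher by 0.99 on the log2 scale in cortex, with 9 of 9 genes above the mean, and by 0.80 in thalamus, with 8 of 9. Animal d (ret/wt replicate 4) averaged -1.11 in cortex, with 0 of 9 genes above, and -0.65 in thalamus, with 1 of 9. The cortex library of animal d is the one with choroid plexus markers, and the part of that tissue in its low values was not tested. Animal e averaged -0.85 in cortex with 0 of 9 genes above but 0.11 in thalamus with 6 of 9. Its cortex library had the highest summed cortical excitatory neuron markers of the 8 cortex libraries, 2699 CPM. It also had the highest summed hippocampal markers, 622 CPM, and striatal markers, 417 CPM. The part of these tissues in its low values was not tested. Animal f averaged 0.66 in cortex and 0.38 in thalamus, with 7 of 9 genes above in each, and its cortex library is the one with the most cerebellar marker RNA and the lowest summed cortical excitatory neuron markers, 871 CPM.

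**Figure D3:**
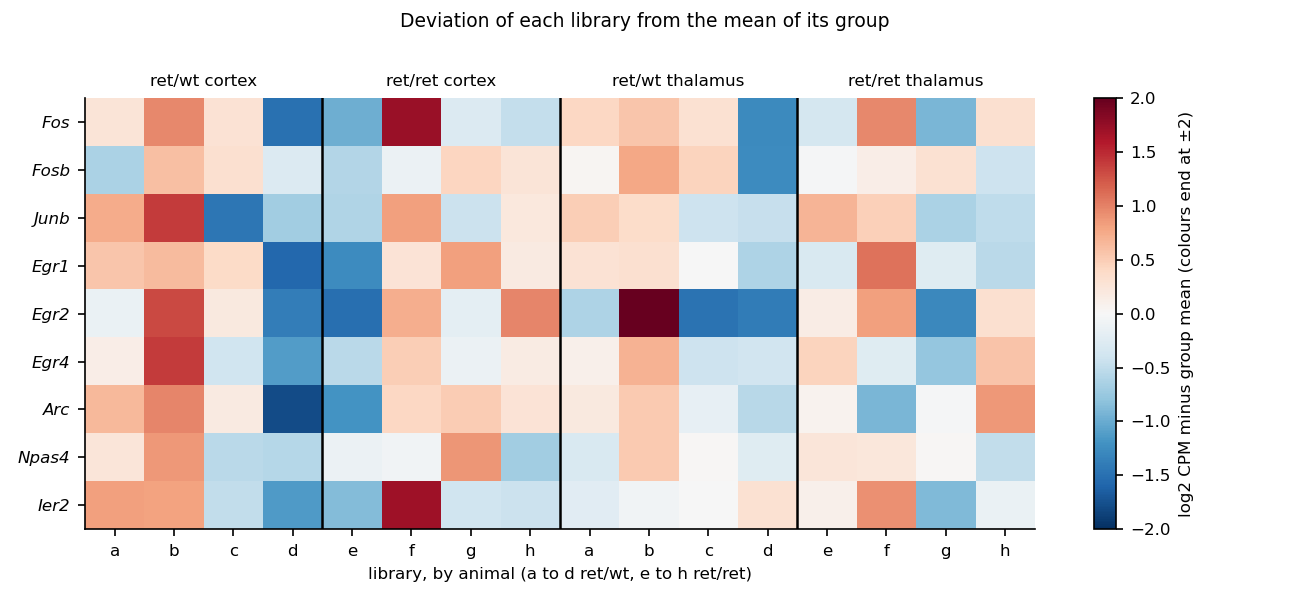
Deviation of each gene (rows) from its group mean in each library (columns, by animal within the 4 groups), in log2 CPM, red above and blue below the mean, with colours ending at ±2. Averaged over the 9 genes, animal b lies above its groups in both regions (0.99 and 0.80), animal d lies below in both (-1.11 and -0.65), and animal e lies below in cortex (-0.85) and near 0 in thalamus (0.11).

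Whether the level in cortex went with the level in thalamus of the same animal was tested for each gene over the 8 animals, with exact two-sided permutation tests of log2 CPM. None of the 9 relations passed Benjamini-Hochberg adjustment. Fos was closest, with Pearson r = 0.848 (exact p = 0.0135, adjusted p = 0.121) and Spearman rho = 0.857 (exact p = 0.0107). Without animals b and f, the 2 farthest from the median in cortex, r for Fos was 0.761 (exact p = 0.0861), and centred on the genotype means over all 8 animals it was 0.842 (exact p = 0.0347, adjusted p = 0.3125). Leaving out animal g brought the adjusted p for Fos to 0.0232 in the exact test. Egr4 had r = 0.723 (exact p = 0.0468, adjusted p = 0.211) and rho = 0.714 (exact p = 0.0576), but r = 0.098 without animals a and b, so that its relation rests on those animals. The other 7 genes had r from 0.325 (Arc) to 0.593 (Fosb). The median r of the 9 genes was 0.475, and 21.4% of all genes had an r at or above it. No correlation was computed inside a genotype, with 4 animals in each, and the centred values are given in its place.

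**Figure D4:**
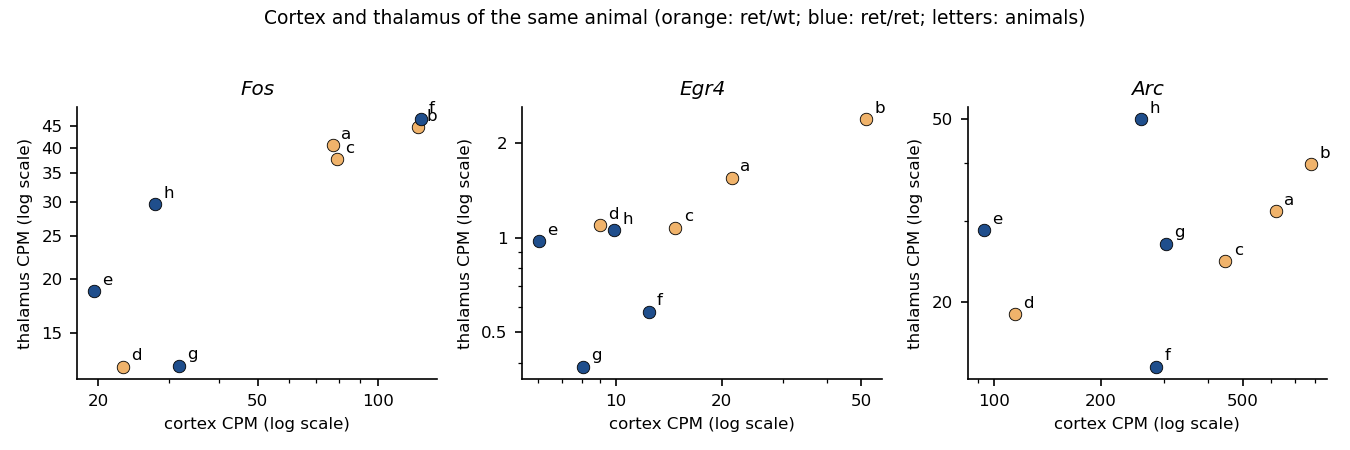
Thalamus CPM against cortex CPM (both log scales) for Fos, Egr4 and Arc, one point per animal with its letter, coloured by genotype. Fos rises along both axes from animals d, e and g to animals b and f (r = 0.848), and Arc shows a looser spread (r = 0.325).

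Some of the other genes of the activity response were also lower in the thalamus. Of 34 further rapid response genes, 32 were tested, and in ret/wt animals 14 were called lower in the thalamus and 0 higher, where 7.12% of all genes were lower, and 18 did not pass. Their median log2 fold change was -1.11. The largest falls in ret/wt were in Egr3 (-4.94), a further zinc-finger factor, and in the orphan nuclear receptors Nr4a2 (-3.57) and Nr4a3 (-3.01). In ret/ret animals 8 of the 32 were lower and 0 higher (median -0.85), where 5.4% of all genes were lower, again led by Egr3 (-3.80), Nr4a3 (-2.77) and Nr4a2 (-2.62). Between genotypes edgeR called 0 of the 32 in either region. In cortex 2 were lower at an unadjusted p under 0.05, the zinc-finger repressor Klf10 (-0.82) and the Fos family member Fosl2 (-0.99), and the list median was -0.20. In the thalamus 1 was higher at that level, Amigo3 (1.19), with a list median of 0.08.

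Of 28 delayed and effector genes of the activity response, 27 were tested. In ret/wt animals 15 were lower in the thalamus and 3 higher, where 7.12% of all genes were lower and 785 of 14442 were higher. The median log2 fold change of the list was -1.11. The synaptic scaffold gene Homer1 was at -3.22, the phosphatase gene Dusp14 at -2.74 and Inhba, which encodes an activin subunit, at -2.53. The 3 higher genes were Cartpt (4.06), a neuropeptide precursor, Acan (1.56), which encodes the core protein of perineuronal nets, and Scg2 (1.07), a secretory granule protein. In ret/ret animals 9 were lower and 1 higher (median -0.84), where 5.4% of all genes were lower and 603 of 14715 were higher. Homer1 was at -2.84, Dusp14 at -2.49 and Ptgs2, the inducible cyclooxygenase, at -2.33, and Cartpt at 3.37. Between genotypes edgeR called 0 of the 27 in either region, with medians of -0.28 in cortex and -0.16 in thalamus. Bdnf, the activity-regulated neurotrophin, was at -0.46 in cortex (edgeR unadjusted p = 0.0282), the 1 gene of this list under 0.05 there.

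Of the kinases and transcription factors that act upstream of the immediate early genes, 34 were tested. In ret/wt animals 15 were lower in the thalamus and 0 higher, where 7.12% of all genes were lower. They were led by the transcription factor gene Mef2c (-3.90) and the calcium-dependent kinase genes Camk2a (-2.95) and Camk4 (-1.98). In ret/ret animals 10 were lower and 0 higher, where 5.4% of all genes were lower, with Mef2c at -3.67, Camk2a at -2.57 and Camk4 at -2.18. Between genotypes edgeR called 0 of the 34 in either region, and Srf, whose protein binds the CArG box, was at -0.46 in cortex (edgeR unadjusted p = 0.0315). Of 14 heat shock genes, edgeR called 0 lower in the thalamus in either genotype. For a list of this size that is near the shares of all genes, 7.12% in ret/wt and 5.4% in ret/ret. The list median log2 fold change was -0.09 in ret/wt and -0.02 in ret/ret. Cryab was higher in both genotypes (1.32 in ret/wt and 1.19 in ret/ret) and Hmox1 in ret/ret (1.54). Over all genes, 785 of 14442 were called higher in ret/wt and 603 of 14715 in ret/ret. The interaction was called in 0 genes of these lists.

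By likeness of profile over the 16 libraries, with group means removed, the genes most like the mean of the 9 were Dclre1a (r = 0.905), Slc35c1 (0.876), Galnt6 (0.853), 2510002D24Rik (0.848), Lgr6 (0.831), Npc1 (0.8286), Rnf149 (0.828), Midn (0.805), Rassf2 (0.803) and Wls (0.799), out of 12662 genes. These are the top of a long ranking over 16 libraries from 8 animals, so high values are described and not tested. Of these 10, Galnt6 was higher in the thalamus in both genotypes (1.80 in ret/ret and 1.73 in ret/wt on the log2 scale), opposite to the immediate early genes, and Midn was lower in the thalamus in ret/wt (-1.03, edgeR adjusted p = 0.0084), in their direction. The other 8 genes were not called between regions. Among the lists, the 32 further rapid response genes had a median r of 0.376 with 29 above 0, the delayed genes 0.111, the upstream factors -0.0268 and all other genes 0.0142. Oligodendrocyte markers had a median r of 0.460, with 8 of 8 above 0, and choroid plexus markers one of -0.380, with 0 of 8 above 0.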

How the data were processed

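The authors deposited a table of expected counts by Ensembl gene with a column for each of 16 libraries. Per the labels' protocols these were polyA-enriched and stranded, and per the submitters' processing notes kallisto 0.44.0 and the build GRCm38.p6 were used, the role of each not being stated. The annotation and the strand setting are not given in the sources used here. Counts were rounded to whole numbers, filtered with filterByExpr (minimum count 10, minimum total 15), scaled by TMM and tested with edgeR 4.0.16 (quasi-likelihood) in R 4.3.3, with Benjamini-Hochberg adjustment over all genes at 0.05. Each comparison of groups used its own 8 libraries, and the interaction all 16. Standard errors follow from the quasi-likelihood F statistic. log2 CPM used a prior count of 1. Alternatives were DESeq2 1.42.0, limma-voom (limma 3.58.1), other scalings and filters, single replicates left out, a shared fit and a replicate block, with a fit on 6 animals added after seeing the data. Scripts ran in Python 3.11.15 (pandas 2.3.3, scipy 1.17.1, matplotlib 3.10.9) and the fits were tested on simulated data.

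Symbols were matched by Ensembl identifier for 21581 genes (99.0%), with positions from GENCODE M21 on GRCm38 and promoters from RefSeq. The members and lists were chosen with earlier results of these data known. All members were described in every comparison. From the other lists, up to 3 called genes with the largest fold in each direction are named, or else the 2 with the smallest unadjusted p as examples, and the 10 genes of most similar profile are those with a mean log2 CPM of at least 1. Cortex and thalamus libraries are paired by the animal letters in the labels. Checked on the residuals of all tested genes together, the correlation within animals ran from -0.0171 to 0.239 with a mean of 0.0746. That check does not describe the 9 genes alone. Over the 8 animals, the median r of cortex with thalamus was 0.475 for the 9 genes and 0.140 for all genes. The main fits left the pairing out, and the replicate block takes it in for the comparisons of regions and the interaction. Equal replicate numbers across genotypes are different animals. For the comparisons of genotype the block was set by replicate number, so it joined unrelated animals and takes in no pairing. Those fits are still counted among the alternatives. Each library is 1 animal and region, so p-values measure the spread between animals. Floors and counts cover counting error only.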

Additional observations from a re-analysis of the deposited data

Results flagged for a closer look

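In 4 of the 36 groups of 4 libraries, 1 library lay far from the others by the gap divided by the range of the group. Normally distributed values meet this criterion in about 1 group in 20. It was applied to CPM without a log, and the groups share libraries, so that rate may not hold here. Fos in ret/ret cortex had 128 CPM in replicate 2 and 19.5 to 31.8 CPM in the others. Ier2 in the same group had 24.5 CPM in replicate 2 and 4.07 to 5.70 CPM in the others. This is the library with the highest cerebellar marker sum, and the part of that tissue in its values was not tested. Egr1 in ret/ret thalamus had 113 CPM in replicate 2, from the same animal, f, and 36.6 to 45.2 CPM in the others. That thalamus library had the highest summed thalamic neuron markers, 3468 CPM, and their part in its values was not tested. Egr2 in ret/wt thalamus had 5.32 CPM in replicate 2 and 0.120 to 0.259 CPM in the others, which held 2 to 6 counts each.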

How the results depend on the processing

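Of the values under the alternatives, those matching the reported direction and side of the threshold were 157 of 162 for genotype in cortex, 146 of 160 for genotype in thalamus, 154 of 162 for region in ret/ret, 152 of 162 for region in ret/wt and 200 of 225 for the interaction. DESeq2 called 1 of the 9 genes between genotypes in cortex, and edgeR none, where over all 14288 genes they called 39 and 3. Paired by animal as a replicate block, the interaction of Egr1 stood at -0.047 (edgeR, log2), and the call of Fos in ret/wt animals was the one call that the block changed. In the 6 animals without Y-linked reads, a choice made after seeing the data, the log2 genotype difference in thalamus was -0.040 for Junb, -0.023 for Npas4 and -0.093 for Ier2, that in cortex was -0.96 for Ier2, and the interaction was -0.42 for Egr1 and -0.14 for Egr2. With limma-voom the thalamic difference was 0.059 for Egr2 and -0.0037 for Arc, and the interaction of Egr1 was -0.057. With single replicates left out, the thalamic difference ran from -0.036 to 0.42 for Junb, from -1.87 to 1.52 for Egr2, from -0.26 to 0.33 for Arc, from -0.060 to 0.26 for Npas4 and from -0.083 to 0.55 for Ier2. The cortical difference of Ier2 ran from -0.78 to 0.47. The regional difference of Fos in ret/ret ran from -1.30 to 0.053, the highest without ret/ret cortex replicate 2. The interaction ran from -0.16 to 1.21 for Fos, from -0.40 to 0.42 for Egr1, from -0.29 to 3.32 for Egr2, from -0.28 to 0.68 for Egr4 and from -0.27 to 1.08 for Ier2. With single replicates left out, the correlation of cortex and thalamus passed for 0 to 1 genes, and r ran from -0.25 to 0.64 for Egr2, from -0.047 to 0.62 for Npas4 and from -0.39 to 0.51 for Ier2. The causes of these changes were not tested. Depth limits Egr2 and Egr4 in the thalamus, where libraries held as few as 2 and 8 counts.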
